A study of Mus musculus with 6 samples.

Results

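Pou5f1, Sox2, Sall4, Utf1, Lin28a and Trim71 encode core factors of the pluripotent state and were chosen by name. Each matched 1 of 41388 gene rows of a count table of mouse induced pluripotent stem cells, and all 6 were among the 14717 genes that passed a filter on low counts. The table holds 6 poly(A) libraries, 3 from miR-34a-/- lines and 3 from wild-type lines, all of the C57BL/6 strain. Fibroblasts from littermate embryos at embryonic day 13.5 were reprogrammed with pMX retroviruses carrying mouse Oct4, Sox2 and Klf4 in both genotypes, single colonies were picked, and the lines were kept on feeders of irradiated embryonic fibroblasts. Oct4 is the protein of Pou5f1, so Pou5f1 and Sox2 are also carried by the vectors, and a count per gene cannot tell a vector transcript from that of the cell's own gene. The 3 lines (replicates) of a genotype are called independent, and the extraction notes speak of pairs, without saying which lines share an embryo or that equal numbers mark a pair.

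Oct4, a POU-domain factor, and Sox2, an HMG-box factor, bind next to each other on DNA and sustain the genes of the pluripotent state, their own included. Sall4 is a zinc finger factor that works with Oct4 and recruits the NuRD deacetylase complex, and Utf1 is a chromatin-bound factor whose gene is a textbook target of Oct4 with Sox2. Lin28a is an RNA-binding protein that blocks maturation of the let-7 microRNAs, Trim71 (also LIN41) is an RNA-binding repressor of mRNAs, and let-7 in turn represses the mRNAs of both. miR-34a is induced by p53 and slows reprogramming of fibroblasts, and Sox2, Nanog and Mycn are among its reported targets.

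A few values of the whole data set bear on these genes. Mir34a itself was nearly uncounted, with 1 read in a miR-34a-/- library (replicate 1), 2 in a wild-type one (replicate 1) and none elsewhere, so the targeted gene did not check the labels. Total counts ran from 8432597 to 29654855 per library, and no pair of libraries was alike within sampling noise. The counts of the 6 genes ran from 2541 to 33920 per library. The lowest, Sox2 in wild-type replicate 2, was 318 CPM (the count scaled to a common library size, with composition factors between libraries) with an exact Poisson 95% interval of 306 to 330 that covers counting error only. The 4 Y-linked genes Ddx3y, Eif2s3y, Kdm5d and Uty had group means of 4.30 to 17.2 CPM in the wild-type and 0.0119 to 0.163 CPM in the knockout lines, and Xist had 3.07 and 4.90 CPM. Genotype and the presence of Y-linked transcripts therefore cannot be told apart here. X-linked genes had a median log2 fold change of 0.37, against 0.00 for autosomal genes, and this cannot be told apart from genotype either. Of 16 fibroblast markers, 14 were tested, of which 10 fell and 2 rose in the knockout. Among all tested genes, 24.0% fell and 26.5% rose. The summed level of the 16 was 528 to 724 CPM in the wild-type and 433 to 519 CPM in the knockout libraries. Lum and Fap were at 0 in every knockout library. In the wild-type libraries they were at the floor too, with 3 and 5 counts in total, and neither was tested. The most abundant were Col1a1 at 254 and 127 CPM in wild-type and knockout, Col1a2 at 166 and 153 CPM, and S100a4 at 23.5 and 70.8 CPM. The part of these cells in the results was not tested. Of 15 markers of primed cells or differentiated derivatives, 14 were tested, of which 7 fell and 5 rose. The shares over all tested genes were again 24.0% and 26.5%. The summed level of the 15 was 671 to 723 CPM in the wild-type and 282 to 298 CPM in the knockout libraries. Most of that level was Dnmt3b, the de novo DNA methyltransferase gene of primed cells, at 520 and 168 CPM, so the sum does not measure differentiated cells. Nes was at 94.1 and 54.7 CPM and Pou3f1 at 23.5 and 15.7 CPM. The 5 that rose, named after their values were seen, were low: the endoderm genes Gata4 (1.80 and 6.11 CPM in wild-type and knockout), Sox7 (2.21 and 4.01 CPM), Gata6 (1.32 and 2.79 CPM) and Sox17 (0.314 and 0.931 CPM), and the neural gene Sox1 (1.89 and 2.64 CPM). The remaining genes that fell were low as well, and were also named after their values were seen. They were T (7.19 and 1.31 CPM in wild-type and knockout), Eomes (14.7 and 8.23 CPM), Pax6 (10.5 and 6.53 CPM) and Cdx2 (0.929 and 0.324 CPM). The part of primed or differentiated cells, too, was not tested.

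The microRNA missing in the knockout has a match for its seed in 1 of the 6 genes, Lin28a. The mature miR-34a-5p and let-7a-5p sequences are shown because both pair with members of this group, from RefSeq (GRCm38.p6), with the seed, bases 2 to 8, in capitals.
miR-34a-5p: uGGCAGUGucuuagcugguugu
let-7a-5p: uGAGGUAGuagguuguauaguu
A 3′ UTR match is the 7 letters complementary to the seed, CACTGCC for miR-34a and CTACCTC for let-7a, on the transcript strand. The Lin28a 3′ UTR of 2775 bases held 2 matches to the miR-34a seed. They are shown with the match in capitals (GENCODE M21 transcripts, mm10, minus strand), and the second is followed by an A, which makes it an 8-base site.
Lin28a at base 109, chr4:134005989-134006011: tgcgtgggtagcttgCACTGCCg
Lin28a at base 1295, chr4:134004803-134004825: ttgtgctaggaagtaCACTGCCa
Sox2, a reported target, held no match in its annotated 3′ UTR of 1086 bases, also when bases 2 to 7 followed by an A were searched. This says only that these letters are not in that window. Of 13267 tested genes with an annotated 3′ UTR, 15.4% held at least 1 match to the miR-34a seed and 2.89% at least 2.

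Matches to the let-7 seed were found in Sall4, Lin28a and Trim71 and numbered 1, 2 and 4. All 7 were 8-base sites, and they are shown because Lin28a and Trim71 are the textbook let-7 targets of this group.
Sall4 at base 1082, chr2:168748940-168748962: agggctttaatttatCTACCTCa
Lin28a at base 909, chr4:134005189-134005211: gcacagcctgttgaaCTACCTCa
Lin28a at base 1547, chr4:134004551-134004573: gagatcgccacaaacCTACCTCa
Trim71 at base 166, chr9:114512472-114512494: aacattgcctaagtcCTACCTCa
Trim71 at base 262, chr9:114512376-114512398: agtgataatttctatCTACCTCa
Trim71 at base 3591, chr9:114509047-114509069: tttagtatggattttCTACCTCa
Trim71 at base 3617, chr9:114509021-114509043: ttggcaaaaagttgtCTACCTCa
Of the 13267 genes, 9.59% held at least 1 such match and 10 genes (0.0754%) held at least 4. The 3′ UTR of Trim71, at 5512 bases, was longer than those of 97.5% of these genes, while those of Utf1 (122 bases) and Pou5f1 (221 bases) were short.

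**Figure D1:**
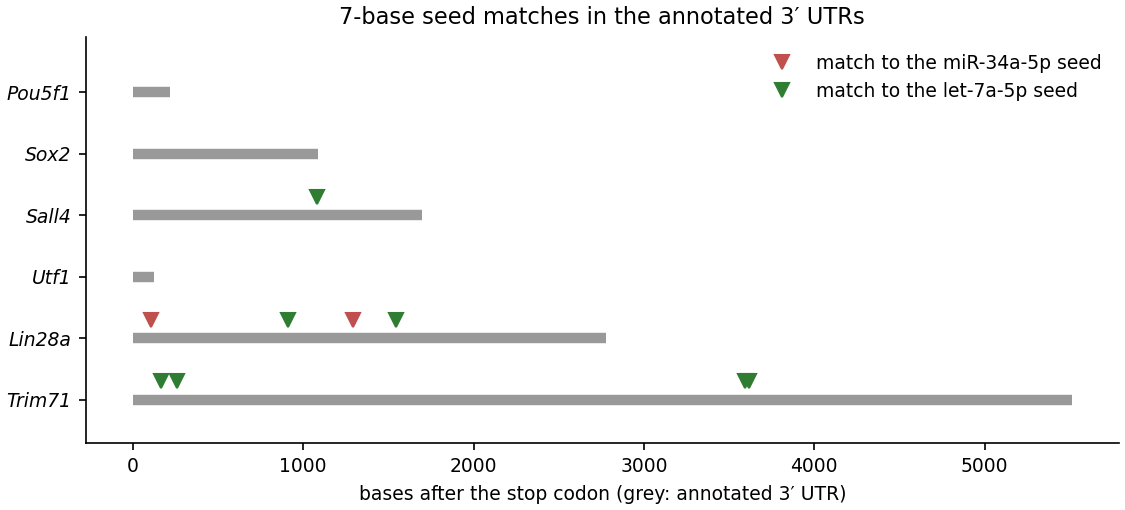
Positions of 7-base seed matches along the annotated 3′ UTR of each gene, in bases after the stop codon, with the UTR in grey. Only Lin28a, of the 6, carries matches to miR-34a (2), and Trim71 carries 4 matches to let-7.

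The 6 genes did not move as a block when miR-34a was missing. Pou5f1 and Sox2 rose in the knockout, Lin28a and Utf1 fell, and Sall4 and Trim71 did not pass the test. With 4 of 6 called at an adjusted p under 0.05, the group lay near the background of these data, where 50.5% of all tested genes were called, 26.5% higher and 24.0% lower. Against a fold change of at least 1.2 (edgeR glmTreat), 26.0% of all genes were called, and of the 6 only Pou5f1 (higher) and Lin28a (lower) were. The 3 knockout and 3 wild-type values did not overlap in any of the 6 genes, which held for 56.0% of all genes. The median log2 fold change of all tested genes was 0.01. In these bulk samples, more or fewer expressing cells and more or less RNA per cell cannot be told apart.

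**Figure D2:**
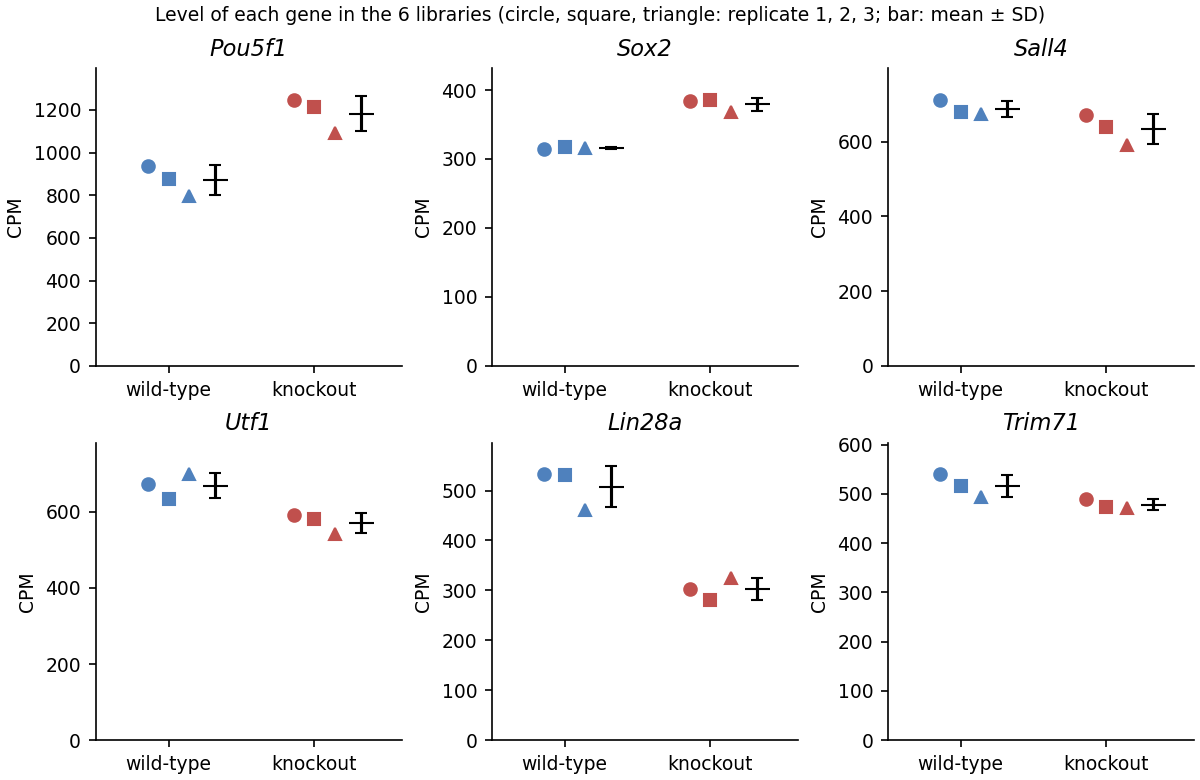
CPM of each gene in each library (y axis from 0) by genotype, with replicates 1, 2 and 3 as circle, square and triangle and the mean ± SD (n = 3) as a bar. Lin28a shows the largest fold difference, with 280 to 324 CPM in the knockout and 460 to 532 CPM in the wild-type libraries.

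Pou5f1 (ENSMUSG00000024406, chromosome 17, 35506018 to 35510772, plus strand, mm10) was the most abundant of the 6 by CPM. Knockout lines 1 to 3 had 1246, 1213 and 1090 CPM, and wild-type lines 1 to 3 had 939, 878 and 796 CPM. Every knockout line was above every wild-type line. The means were 1183 ± 82.0 and 871 ± 71.8 CPM (SD, n = 3), a rise of 1.36-fold (0.44 ± 0.066 SE on the log2 scale, adjusted p = 2.1e-05 by edgeR), and against 1.2-fold the adjusted p was 0.0085. This change was larger than that of 67.9% of all tested genes. Part of the Pou5f1 transcript overlaps an antisense gene, Gm19553, which shares 15% of its 50-base stretches and had 1 to 19 counts in a library. How reads in the overlap were counted is not given, so its effect on Pou5f1 was not tested.

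Sox2 (ENSMUSG00000074637, chromosome 3, 34650405 to 34652461, plus strand), a gene of 1 exon, varied least of the 6 between wild-type lines. The values were 384, 385 and 368 CPM for knockout lines 1 to 3, against 315, 318 and 316 CPM for wild-type lines 1 to 3. Every knockout line lay above every wild-type line, and the wild-type lines all fell inside the counting interval of wild-type line 2 given above. The means of 379 ± 9.46 and 316 ± 1.63 CPM gave a rise of 1.2-fold (log2 fold change 0.26, SE 0.050, edgeR adjusted p = 0.00022). It was not called against a change of 1.2-fold (adjusted p = 0.53). Of the genes in the vectors, Klf4 rose as well, by 0.51 on the log2 scale (447 ± 13.7 CPM in wild-type, 636 ± 34.7 CPM in knockout lines, adjusted p = 3.5e-07 by edgeR), so all 3 vector-carried genes were higher in the knockout. The part of the vectors in this was not tested. Among the other reported targets of miR-34a in reprogramming, Nanog rose by 0.31 on the log2 scale and had no seed match, whereas Mycn, with 1 match in a 3′ UTR of 913 bases, fell by 0.93 (359 ± 5.19 CPM in wild-type, 188 ± 8.33 CPM in knockout lines, adjusted p = 2.7e-11 by edgeR).

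Sall4 (ENSMUSG00000027547, chromosome 2, 168748332 to 168767943, minus strand) had 671, 640 and 592 CPM in knockout lines 1 to 3, while wild-type lines 1 to 3 had 711, 678 and 673 CPM. The groups lay side by side, and the highest knockout value, 671, came within a few CPM of the lowest wild-type value, 673. The log2 fold change of -0.12 had a 95% interval of -0.235 to 0.003 (edgeR adjusted p = 0.096). Utf1 (ENSMUSG00000047751, chromosome 7, 139943789 to 139945112, plus strand) had 591, 581 and 541 CPM in knockout lines 1 to 3, against 673, 633 and 698 CPM in the wild-type. Each knockout line was below each wild-type line. From 668 ± 32.9 to 571 ± 26.7 CPM it fell by 0.23 on the log2 scale (SE 0.056, edgeR adjusted p = 0.0025), and it was not called against 1.2-fold (adjusted p = 0.8). Utf1 thus moved opposite to Pou5f1 and Sox2, whose proteins act on its gene.

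Lin28a (ENSMUSG00000050966, chromosome 4, 134003330 to 134018841, minus strand) changed most of the 6. Knockout lines 1 to 3 stood at 303, 280 and 324 CPM and wild-type lines 1 to 3 at 532, 531 and 460 CPM. Even the highest knockout line lay well below the lowest wild-type line. The means of 302 ± 22.3 and 508 ± 41.3 CPM gave a level 1.68-fold lower in the knockout (log2 fold change -0.75, SE 0.066, edgeR adjusted p = 4e-08). This gene, the 1 member with miR-34a seed matches, was thus lower where miR-34a is missing. The 383 tested genes with at least 2 matches had a median log2 fold change of 0.04, with 127 called higher and 97 lower, and the 11220 genes with none had a median of 0.00. Lin28a lies on the same chromosome as Mir34a, 16.0 Mb away. Its paralog Lin28b, which blocks let-7 too, fell as well, by 1.02 on the log2 scale (22.6 ± 2.12 CPM in wild-type, 11.3 ± 1.14 CPM in knockout lines, adjusted p = 9.3e-08 by edgeR).

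Trim71 (ENSMUSG00000079259, chromosome 9, 114507133 to 114564369, minus strand) was steady by comparison. The knockout lines had 490, 473 and 471 CPM, and the wild-type lines had 539, 516 and 493 CPM. The groups touched without overlapping, 490 against 493 CPM. The log2 fold change was -0.11 (SE 0.053, edgeR adjusted p = 0.089). Without wild-type replicate 3 its fall passed the test (-0.15 on the log2 scale, adjusted p = 0.037), and in no other fit with a library left out.

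**Figure D3:**
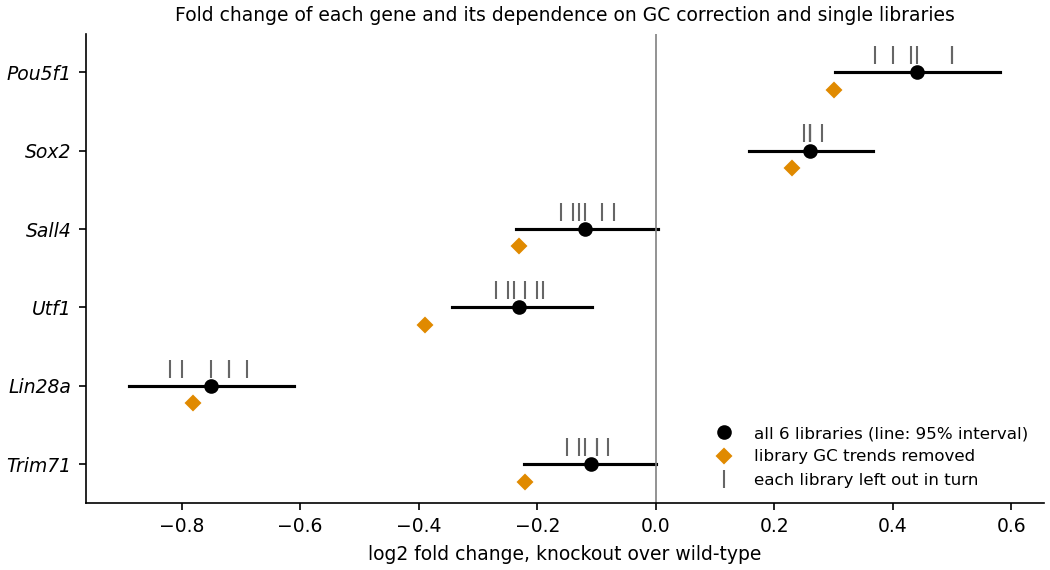
Log2 fold change of each gene (x axis, knockout over wild-type) with its 95% interval as a line, the values with each library left out as ticks and the value after removal of library GC trends as a diamond. No setting shown changes a direction, and Utf1 moves furthest with GC correction, followed by Pou5f1.

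Fold changes in these libraries followed the GC content of the transcripts, with medians from -0.24 in the lowest to 0.11 in the highest GC decile of genes above 5 CPM. With GC content of 50.1% to 63.5%, the 6 transcripts lay in deciles 5 to 10, Lin28a the lowest and Utf1 the highest. With library GC trends removed, Pou5f1 and Sox2 had log2 fold changes of 0.30 and 0.23 and Lin28a -0.78. Utf1 moved to -0.39, and Sall4 and Trim71 to -0.23 and -0.22, both then called lower (edgeR adjusted p = 0.0014 for each).

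Ratios between 2 of the genes within a library need no scaling between libraries. Library GC trends do not cancel in them where GC content differs, as between Pou5f1 (57.6%) and Lin28a (50.1%), and the ratios were not corrected for these. The Pou5f1 to Lin28a count ratio was 4.11, 4.33 and 3.36 in the knockout lines, against 1.76, 1.65 and 1.73 in the wild-type. The ratio in the knockout was 2.29 times that in the wild-type lines, with no overlap. Each knockout line was above each wild-type line for Pou5f1 and below it for Lin28a. The lack of overlap was therefore fixed by the single genes and adds no support. The ratio of Pou5f1 to its target gene Utf1 averaged 2.07 ± 0.0480 and 1.31 ± 0.145 in knockout and wild-type lines (SD, n = 3). It did not overlap either, which was fixed in the same way. Of all 15 pairs of these genes, 12 did not overlap. Pou5f1 to Sox2 was closer, at 3.12 ± 0.145 and 2.75 ± 0.235, and overlapped. The Sall4 to Trim71 ratio was 1.33 ± 0.0602 and 1.33 ± 0.0275. With 3 lines against 3, an exact permutation test of a single ratio cannot go below p = 0.10, so no p is given.

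Per kb of merged exons, which allows levels to be compared between genes, the order of the 6 differed between the genotypes. In the knockout lines Pou5f1 led at 526 ± 36.5 CPM per kb, followed by Utf1 at 465 ± 21.8, Sox2 at 184 ± 4.60, Sall4 at 115 ± 7.14, Lin28a at 75.7 ± 5.57 and Trim71 at 51.2 ± 1.14 (SD, n = 3). In the wild-type lines Utf1 led at 544 ± 26.8 CPM per kb, followed by Pou5f1 at 388 ± 32, Sox2 at 154 ± 0.793, Lin28a at 127 ± 10.3, Sall4 at 124 ± 3.71 and Trim71 at 55.3 ± 2.46. Lin28a and Sall4 overlapped in the wild-type lines and lay apart in the knockout. The top of the order rests on the gene models: per kb of the longest transcript, Pou5f1 had 869 and 640 CPM per kb in knockout and wild-type and led in both genotypes. All 6 were strongly expressed in every library, with ranks by level per kb between 71 (Utf1) and 993 (Trim71) among 14638 genes.

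**Figure D4:**
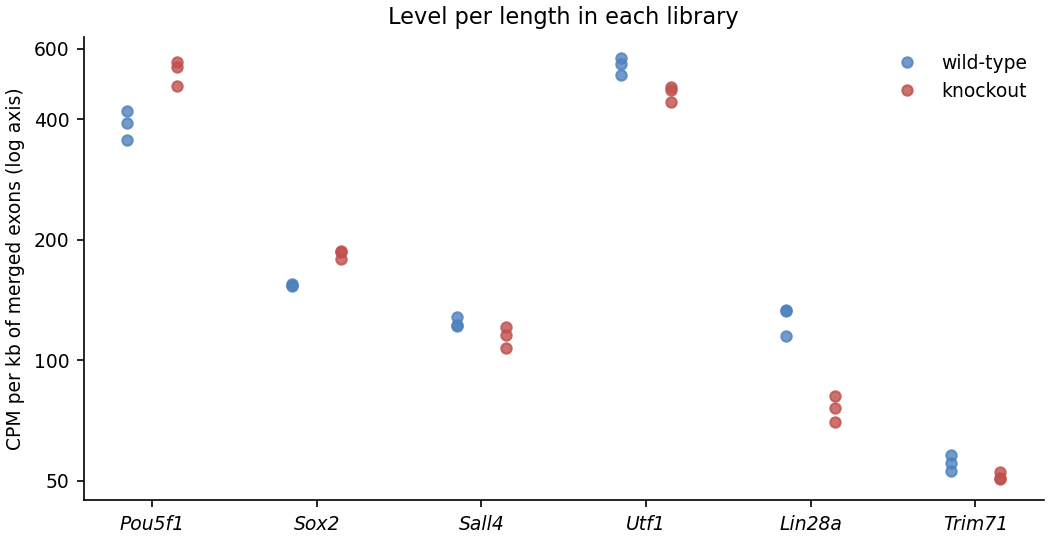
CPM per kb of merged exons (log axis) of each gene in each library, wild-type in blue and knockout in red. Utf1 leads in the wild-type and Pou5f1 in the knockout lines, and Lin28a drops from the level of Sall4 to below it.

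The genes with the most similar patterns were ranked by the root mean square distance between mean-centred log2 CPM over the 6 libraries, among 6915 genes of at least 20 CPM. They were Atg4d, Spindoc and Acads for Pou5f1 (distances 0.0186 to 0.0248), Dcaf4, Prkcsh and Usp30 for Sox2 (0.0153 to 0.0190), and Wdr18, Chmp3 and Sec16a for Sall4 (0.0120 to 0.0181). For Utf1 they were Prpf40b, Rbm14 and Eif1ad (0.0169 to 0.0283), for Lin28a Tpm2, Hook1 and Znrf2 (0.0428 to 0.0554), and for Trim71 Kpna6, Gapvd1 and Zfp609 (0.00993 to 0.0211). Among the 6 themselves, Sall4 and Trim71 were closest at 0.0421 and Pou5f1 and Lin28a farthest at 0.606.

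Genes known as direct targets of Oct4 with Sox2 were mostly higher in the knockout. Of 13, all tested, 9 rose, 1 fell and 3 were not called, with a median log2 fold change of 0.29 against 0.01 for all genes, of which 26.5% were higher and 24.0% lower. Against 1.2-fold, 5 of the 13 were called higher and 1 lower, where 26.0% of all genes were called in either direction. The matrix gene Spp1 rose from 436 ± 3.07 to 751 ± 25.6 CPM (log2 fold change 0.78) and the X-linked nuclear receptor gene Nr0b1 from 120 ± 11.7 to 219 ± 6.34 CPM (0.86). The Nodal coreceptor gene Tdgf1 rose by 0.56, the growth factor gene Fgf4 by 0.46, Dppa5a by 0.38, Lefty1, a Nodal inhibitor, by 0.29, and Jarid2, of Polycomb complexes, by 0.15 on the log2 scale. Gdf3 fell by 0.36, and Phc1 and Dppa4 had 0.08 and 0.02. Of the group, Utf1, also such a target, was lower, while Pou5f1 and Sox2, whose proteins act on their own genes too, were higher.

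Other regulators of the network went both ways. Of 28, 13 rose, 9 fell and 6 were not called, with a median of 0.09, where 50.5% of all tested genes were called. The T-box gene Tbx3 rose most, by 1.49 on the log2 scale (137 ± 11.5 CPM in wild-type, 385 ± 40.8 CPM in knockout lines, adjusted p = 2.1e-09 by edgeR), and the cell cycle factor gene Mybl2 rose by 0.72. The naive factors Klf2, Esrrb, Klf5 and Tfcp2l1 rose by 0.49, 0.45, 0.23 and 0.23, and X-linked Hcfc1 by 0.16. Besides Mycn, the called decreases were small, with Stat3 at -0.22, Sall1 and Arid3b at -0.15, Tcf7l1 at -0.14 and Zscan10 at -0.13, while Nacc1 and Rif1 had 0.05 and -0.02. The count of 9 lower dropped whichever library was left out, to 7 at most. It was 5 without knockout replicate 2 or 3 and 4 without wild-type replicate 2. X-linked genes as a whole had a median log2 fold change of 0.37, with 278 of 512 called higher, against 0.00 for autosomal genes. None of the 6 core factors is X-linked, but an indirect effect of the X-linked difference on them was not tested.

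Subunits of NuRD, the repressor complex bound by Sall4, were called about as often as other genes. Of 11, 5 fell, 1 rose and 5 were not called, with a median of -0.12, where 50.5% of all tested genes were called. None was called against 1.2-fold, which 26.0% of all genes were. Mbd3, a methyl-CpG-binding family subunit, fell by 0.33 and the deacetylase gene Hdac1 by 0.30 on the log2 scale, and Gatad2a, Mta3 and Rbbp4 had -0.19, -0.19 and -0.16. X-linked Rbbp7 rose by 0.18, a call lost without wild-type replicate 3, where 0 subunits were called higher (edgeR). Mta1, Hdac2, Chd4 and Mta2 had -0.12, -0.07, -0.02 and 0.06.

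Other genes of the Lin28, let-7 and Trim71 pathway held calls in both directions, as did all tested genes (26.5% higher, 24.0% lower). Of 13, 6 rose, 5 fell and 2 were not called, with a median of 0.13, and the count of 5 lower was 3 without knockout replicate 2 or 3. The immediate early gene Egr1, a reported Trim71 target, rose 2.84-fold (50.1 ± 6.35 CPM in wild-type, 142 ± 1.38 CPM in knockout lines, adjusted p = 2e-11 by edgeR), and the cell cycle inhibitor gene Cdkn1a, another reported target and also a p53 target, rose by 0.51. Mbnl1, a splicing factor gene named after its value was seen and the third such target in the list, also rose by 0.51. Of the let-7 target genes encoding IGF2 mRNA-binding proteins, Igf2bp1 and Igf2bp3 fell by 0.43 and 0.25 and Igf2bp2 rose by 0.57. Hmga2, a textbook let-7 target, rose by 0.31 and Dis3l2, the nuclease gene for let-7 precursors tagged through Lin28a, by 0.24, while the uridylyl transferase genes that add the tag, Zcchc11 and Zcchc6, had 0.08 and 0.13 and were not called. Hmga2 and Dis3l2 were named after their values were seen, as were Zcchc11 and Zcchc6. Arid3b and the Argonaute gene Ago2 each had -0.15.

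**Figure D5:**
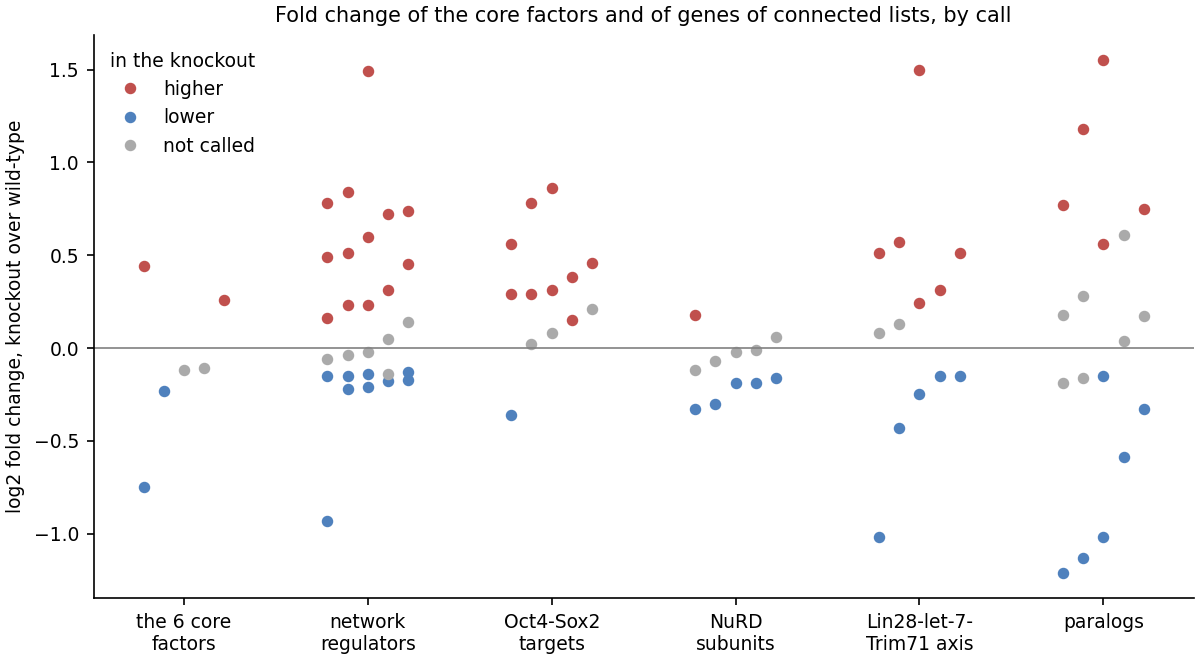
Log2 fold change (y axis, knockout over wild-type) of the 6 core factors and of each tested gene of 5 connected lists, red for genes called higher, blue for lower and grey for not called. Most Oct4-Sox2 targets lie above 0 (9 of 13 called higher), while the other lists hold calls in both directions.

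Paralogs of the 6 genes held calls in both directions. Of 19, 18 were tested, of which 5 rose, 6 fell and 7 were not called, with a median of 0.10, against 26.5% higher and 24.0% lower of all tested genes, so the counts lay near the background. The neural SOX gene Sox11 fell by 1.13 (66.7 ± 5.85 CPM in wild-type, 30.4 ± 0.973 CPM in knockout lines, adjusted p = 1.9e-10 by edgeR), Trim2 fell by 1.21, and Sall3 rose by 1.18 on the log2 scale from 18.3 ± 1.2 to 41.0 ± 4.59 CPM. Sall1, the paralog with the highest level at 232 ± 5.38 CPM in wild-type and 208 ± 4.5 CPM in knockout lines, fell by 0.15.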

How the data were processed

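The deposited table holds raw counts per Ensembl gene and repeat family, made by the authors against the mm10 build; featureCounts 1.4.5 and TopHat2 2.0.11 are named too, per the submitters' processing notes. The labels call the libraries strand-specific. The sources used here do not give the counting options. Of 42290 rows, the 41388 gene rows were used. The 6 columns of a second table could not be tied to a labelled sample and were left out. The 6 genes and all lists were chosen with earlier results of these data known.

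Genes passing filterByExpr were scaled with TMM factors and tested with edgeR 4.0.16 in R 4.3.3 (quasi-likelihood F test, robust, two-sided, no covariate), with Benjamini-Hochberg adjustment over all 14717 genes and a call at an adjusted p under 0.05. glmTreat tested against 1.2-fold. SE is the log2 fold change over the square root of F. P-values measure the spread between lines. Gene names and models came from GENCODE M21, microRNAs from RefSeq. The fits were also run on simulated counts with the same dispersion for every gene, a simpler setting than these data. No result here rests on that run. Named genes are the 6; the 3 most similar genes for each; in each list of connected genes the 4 with the smallest p and all above 100 CPM; the miR-34a reprogramming targets, vector and sex genes; and the 3 most abundant markers of each other cell type. A gene that this rule names is not reported here. Alternatives were other scalings and filters, DESeq2 1.42.0, limma 3.58.1 voom, robust = FALSE, a replicate block, GC trends, a 1.2-fold null, transcript length and each library left out.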

Additional observations from a re-analysis of the deposited data

How the results depend on the processing

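All 6 genes kept their direction in each of the 18 alternative fits. Pou5f1 ran from 0.30 to 0.50 and Lin28a from -0.82 to -0.69 on the log2 scale, and both stayed called throughout. Sox2 (0.23 to 0.29) and Utf1 (-0.39 to -0.19) lost their call only against 1.2-fold, with log2 fold changes of 0.26 and -0.23. The 1.2-fold null also left 2311 genes higher and 1515 lower, against 3905 and 3528. Sall4 and Trim71 became called lower with library GC trends removed, at -0.23 and -0.22.

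Same-numbered libraries deviated from their genotype means with correlations of 0.231, 0.00486 and 0.231 over 10314 genes. The 0.231 of replicates 1 and 3 was the highest of any knockout and wild-type pair, and all others ran from -0.262 to 0.133. These values do not settle whether the numbers mark pairs. The reported fit has no block because no label says that they do. Knockout replicate 2 correlated best with wild-type replicate 1, at 0.133. With a replicate block, 4055 genes were higher and 3779 lower, and Sall4 (-0.12, adjusted p = 0.027) and Trim71 (-0.11, adjusted p = 0.036) were called. With the replicate block and library GC trends removed together they had -0.23 and -0.22. With each library left out in turn, Trim71 ran from -0.15 to -0.08 and Sall4 from -0.16 to -0.07, and genes called higher numbered 3274 to 4146 and lower 2844 to 3838. The cause was not tested. In the list counts 6 values moved by over 1.5 times, all when a single library was left out, and the report names them. Per kb of the longest transcript, Sall4 had 125 and 136 and Lin28a 86.3 and 145 CPM per kb in knockout and wild-type lines.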

Other observations

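The MYC genes, which act beside the core factors in reprogramming, went in opposite directions. They were singled out after their values were seen. Mycn fell from 359 ± 5.19 to 188 ± 8.33 CPM (SD, n = 3), while Myc rose by 0.74 on the log2 scale (25.6 ± 0.595 CPM in wild-type, 42.3 ± 4.18 CPM in knockout lines, adjusted p = 1.6e-07 by edgeR). Foxd3, a forkhead repressor gene, rose from 37.7 ± 4.45 to 63.9 ± 3.88 CPM (log2 fold change 0.78). Prdm14, a germline and naive-state regulator gene, rose from 31.1 ± 2.50 to 47.1 ± 4.67 CPM (0.60). In the same list of network regulators, Nr5a2, Zfp281 and Thap11 were called lower, at -0.21, -0.17 and -0.18 on the log2 scale. Foxd3, Prdm14, Nr5a2, Zfp281 and Thap11 were also named after their values were seen.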
